A study of Mus musculus with 14 samples.

Results

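The genes described here encode 10 proteins that neutrophils store in granules or hold in the cytosol, followed in the liver of Apoe-deficient mice fed a Western diet with or without erythrodiol, a triterpene alcohol of olive oil. They are Prtn3, Elane and Mpo of the primary granules, Ltf, Camp, Ngp, Lcn2 and Olfm4 of the secondary granules, and S100a8 and S100a9 of the cytosol. They were picked by symbol from the 17552 genes of the deposited count table, and all 10 were found. The choice was made with their erythrodiol to control ratios already known, so those ratios are given below as a description and carry no test.

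All animals were male mice lacking Apoe, labelled as C57BL/6 and 8 weeks old (C57BL/6J in the study's methods), and both groups received the Western diet. The control group had the diet alone for 8 weeks by the labels, and the erythrodiol group had it with 10 mg/kg erythrodiol for the same time. The labelled age equals the labelled time on the diet, so it is unlikely to be the age at sampling. The study's methods give a longer feeding period than the labels. Each group had 7 libraries of liver poly(A) RNA, made from pools of a few mice each. The gene counts, however, came as 1 sum per group, so there was 1 value per gene and group, no spread between libraries could be had, and which library carried a count cannot be told. Every interval below is a 95% counting interval and covers counting error only. The control libraries ranged from 34856340 to 55244294 clean reads and the erythrodiol libraries from 47669656 to 48058606. The summed gene counts were 122889032 in the control and 124686047 in the erythrodiol group. The deleted gene, Apoe, still had 9403 control and 8293 erythrodiol counts, and no group with an intact gene was there to set them against. Hepatocyte genes marked the tissue as labelled, with 9898790 and 9665610 counts of Alb, the gene of albumin, in the control and erythrodiol groups.

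Neutrophils mature in the bone marrow in steps that leave their mark on the granules. Promyelocytes transcribe the serine proteases and the peroxidase of the primary granules, later precursors switch to the lactoferrin, lipocalin and cathelicidin of the secondary granules, and the S100 proteins fill the cytosol of the finished cell. In blood neutrophils the messages of the primary granule enzymes are largely gone, whereas S100a8 and S100a9 messages remain plentiful. The liver holds neutrophils within its sinusoids, and its hepatocytes also make lipocalin 2 during the acute phase response.

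The 3 primary granule genes are shown first by the 250 bases before their transcription starts, because they are made by the same precursor and the comparison of stages below turns on how far Prtn3 went apart from the other two. The sequences are those of RefSeq on GRCm38.p6, the build of the files, at chr10:79879417-79879666 for Prtn3, chr10:79886062-79886311 for Elane and chr11:87793534-87793783 for Mpo, all on the plus strand. Capitals mark matches to the letters searched for on both strands.
Prtn3: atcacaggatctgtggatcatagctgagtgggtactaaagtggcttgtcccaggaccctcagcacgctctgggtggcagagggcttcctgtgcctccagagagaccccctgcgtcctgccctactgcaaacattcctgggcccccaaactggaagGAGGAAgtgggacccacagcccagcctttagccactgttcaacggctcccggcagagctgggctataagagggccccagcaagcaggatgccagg
Elane: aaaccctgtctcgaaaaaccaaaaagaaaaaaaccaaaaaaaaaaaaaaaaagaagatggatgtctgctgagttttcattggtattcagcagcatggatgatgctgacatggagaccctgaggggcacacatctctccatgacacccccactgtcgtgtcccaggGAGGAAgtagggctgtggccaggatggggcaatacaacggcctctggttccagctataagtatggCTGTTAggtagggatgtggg
Mpo: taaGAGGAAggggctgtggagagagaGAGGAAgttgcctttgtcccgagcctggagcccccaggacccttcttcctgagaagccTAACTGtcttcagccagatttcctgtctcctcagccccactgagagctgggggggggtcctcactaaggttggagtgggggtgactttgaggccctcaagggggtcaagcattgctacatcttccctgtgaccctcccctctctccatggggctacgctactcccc
The letters searched were GAGGAA, a core bound by ETS factors such as PU.1, TTGCNNAA for C/EBP factors, TGNGGT for RUNX factors and TAACNG for MYB. No match overlapped another in these 3 windows. Prtn3 had GAGGAA at positions -95 to -90 and Elane at -85 to -80, counted back from the start, and Mpo had it at -247 to -242 and at -224 to -219. The MYB letters stood in Elane and Mpo and not in the Prtn3 window. Of the 10 members 7 had GAGGAA in this window, against 23.3% of 32851 RefSeq promoter windows of the same length. The C/EBP letters were in 4 members, namely Ltf, Ngp, Lcn2 and S100a9, and in none of the 3 primary granule genes, against 9.56% of all windows. The RUNX letters were in 2 members and the MYB letters in 2, against 40.1% and 19.8% of all windows. A match of such short letters is a description of the window and not a binding site.

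Prtn3, the gene of proteinase 3, had 367 control and 41 erythrodiol counts (GeneID 19152, chr10:79879667-79883174 on GRCm38). Scaled by the column totals this was 2.99 CPM, the count scaled to one common library size, in the control and 0.329 with erythrodiol, or 9.08-fold lower (6.57 to 12.9). Elane, which encodes neutrophil elastase and lies next to it at chr10:79886312-79888216, had 24 and 14 counts. Its level was 1.74-fold lower, with an interval that ran from 1.16-fold higher to 3.64-fold lower. Mpo, the gene of myeloperoxidase, at chr11:87793784-87804412, had 13 and 3 counts and was 4.40-fold lower (1.21 to 24.1). The 3 genes of 1 maturation stage were therefore measured at very unequal depth, and of their summed counts Prtn3 held 90.8% in control livers and 70.7% (57.3% to 81.9%) with erythrodiol. Prtn3 had the lower ratio of the neighbouring pair by more than counting error, its ratio being 0.192 of that of Elane (0.0875 to 0.436). Against Elane and Mpo together it was 0.243 (0.121 to 0.505). These pairings were chosen after the values were seen. The study also measured Prtn3 RNA in individual mice by RT-qPCR and found it lower with erythrodiol. There the control standard deviation was above the control mean, and the counting intervals here do not cover such spread between mice.

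Among the secondary granule genes, Ltf, which encodes the iron-binding lactoferrin at chr9:111019292-111042766, had 59 control and 16 erythrodiol counts and was 3.74-fold lower (2.12 to 6.97). Olfm4, the gene of olfactomedin 4, a glycoprotein found in a subset of neutrophils, had 34 and 8 counts at chr14:80000302-80023141 and was 4.31-fold lower (1.96 to 10.8). Ngp, neutrophilic granule protein, had 36 and 19 counts at chr9:110419808-110423012 and was 1.92-fold lower (1.07 to 3.55). Camp, the gene of the antimicrobial peptide cathelicidin at chr9:109847377-109849456, had 5 and 4 counts, too few for any direction, with a log2 ratio of -0.34 (-2.68 to 1.87). Ltf and Olfm4, summed, were lower than Ngp and Camp, summed, by a ratio of 0.460 (0.221 to 0.964), again a pairing chosen after the values were seen. Bulk liver RNA does not show which cells the counts of these genes came from.

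Lcn2, the gene of the siderophore-binding lipocalin 2 at chr2:32384637-32387739, stood apart from all other members by its level. It had 16254 control and 12114 erythrodiol counts, 132 and 97.2 CPM, and was 1.36-fold lower (1.33 to 1.39). It held 92.9% of the counts of the 7 secondary granule and cytosolic members in control livers and 95.6% with erythrodiol. Any sum over secondary granule genes in this liver was thus a measure of Lcn2. In bulk tissue, a lower count of a gene can mean fewer cells of a type or less RNA per cell, and these cannot be told apart here.

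S100a8 and S100a9 encode the 2 subunits of calprotectin, a calcium-binding complex of the neutrophil cytosol. S100a8, at chr3:90669071-90670034, had 411 control and 183 erythrodiol counts and was 2.28-fold lower (1.91 to 2.73). S100a9, at chr3:90692630-90695721, had 702 and 329 counts and was 2.16-fold lower (1.90 to 2.48). The pair did not differ beyond counting error, the ratio of S100a8 being 0.950 of that of S100a9 (0.759 to 1.19). With 594 and 1031 counts over both groups, they were the members other than Lcn2 and Prtn3 whose ratios were narrowly bounded.

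**Figure D1:**
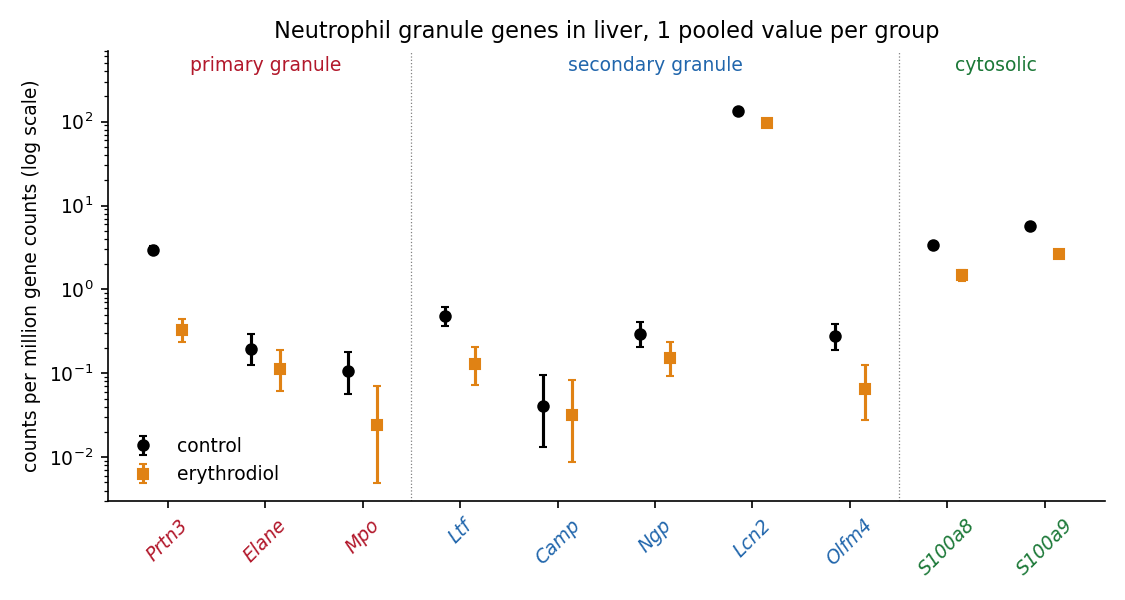
Level of each member in CPM, on a log axis, for control (black circles) and erythrodiol (orange squares), with 1 pooled value per group of 7 libraries and bars for the 95% Poisson counting interval. Prtn3 goes from 2.99 to 0.329, whereas Lcn2, the most abundant member, goes from 132 to 97.2.

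Levels can be set against each other only per length. In CPM divided by the gene length in kilobases, Lcn2 led the control group with 155, followed by S100a9 with 10.7, S100a8 with 8.53 and Prtn3 with 3.04. The counting intervals of these 4 did not overlap. Ngp at 0.249, Elane at 0.212, Ltf at 0.175, Olfm4 at 0.105, Camp at 0.0679 and Mpo at 0.0412 followed, and the interval of each overlapped that of the next in the order. In the erythrodiol group the first 4 kept their order, with Lcn2 at 114, S100a9 at 4.92, S100a8 at 3.74 and Prtn3 at 0.335, again without overlap between neighbours. Prtn3 stood between the calprotectin genes and the remaining granule genes in both groups, and with erythrodiol the next were Ngp at 0.130 and Elane at 0.122.

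All 10 members were lower with erythrodiol, 9 reached 10 counts over both groups, and 6 of these 9 were lower by 2-fold or more. Over all genes with at least 10 counts, 31.9% were lower at all (51.3% when scaled by the median ratio of genes with at least 100 counts), 1.77% were lower and 1.39% higher by 2-fold or more. That share depended on depth, with 9.09% of genes with 10 to 99 counts lower by 2-fold or more, against 0.549% of genes with at least 100 counts. Prtn3, S100a8 and S100a9 belonged to the second class, and Mpo, Ltf and Olfm4 to the first. In 8 of the 9 the counting interval lay below no change, Elane being the exception, and this was so for 15.9% of all genes. The median log2 ratio of the 10 members was -1.15, and that of all genes with at least 10 counts was 0.15. Since the members were chosen with this contrast known, nothing is read from these shares. Among 14037 genes with at least 50 counts, Prtn3 had the 4th lowest ratio, after Gm3873, Dmbt1 and Cyp2b13, and ahead of Akr1c18, Gm10705, Chchd2-ps, Amy2a5, Insl3 and Dab1. Ltf stood 18th, S100a8 60th, S100a9 73rd, Ngp 125th and Lcn2 891st.

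**Figure D2:**
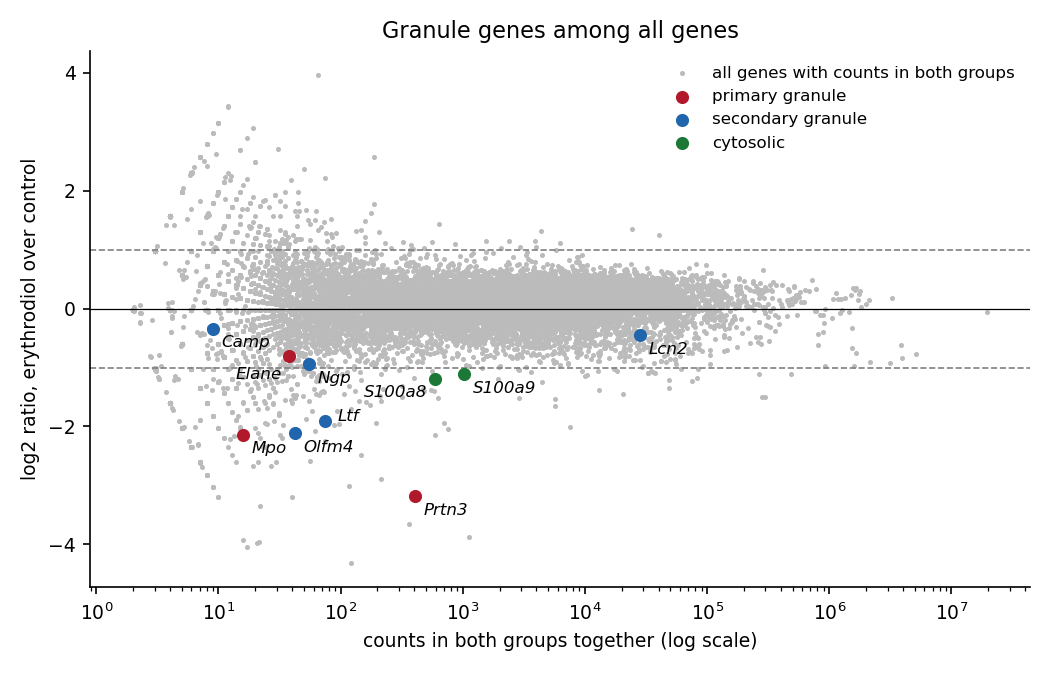
Each gene with counts in both groups by its summed counts (log axis) and its log2 ratio of erythrodiol over control, with the members coloured by stage and dashed lines at 2-fold. Prtn3, at a log2 ratio of -3.18, is among the few lowest genes of its depth, whereas Mpo, Ltf and Olfm4 lie where low counts spread the ratios widely.

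The question put to these genes was whether primary granule messages were lowered more than those of later stages. The 3 primary granule genes summed to 404 control and 58 erythrodiol counts, 7.07-fold lower (5.36 to 9.48). The 7 secondary granule and cytosolic genes summed to 17501 and 12673 counts, 1.40-fold lower (1.37 to 1.43). Primary granule counts were therefore 2.31% of the others in control livers and 0.458% with erythrodiol, a ratio of 0.198 (0.148 to 0.262). As both sums were ruled by 1 gene, the same ratio was taken without each of them. Without Lcn2 it was 0.320 (0.235 to 0.431). Without Prtn3 it was 0.634 (0.335 to 1.16), and without both it was 1.02 (0.536 to 1.89).

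The size of the difference between the stages therefore turned on both Prtn3 and Lcn2. It stayed beyond counting error without Lcn2, whereas without Prtn3 its interval held no change. Without Lcn2 it still rested on Prtn3, which held 90.8% of the control counts of the primary granule genes. As the members were chosen with their ratios known, these contrasts are a description and nothing about the stages is read from them. Elane and Mpo together had 37 and 17 counts and were 2.21-fold lower (1.21 to 4.18), and the 6 later genes other than Lcn2 had 1247 and 559 counts and were 2.26-fold lower (2.05 to 2.51). With 54 counts in all, Elane and Mpo left room for primary granule genes being lower or higher than the others by nearly 2-fold. Within the later genes, the 4 secondary granule genes other than Lcn2 were 2.89-fold lower (2.06 to 4.12) with 134 and 47 counts, and the cytosolic pair was 2.21-fold lower (1.98 to 2.45). The ratio between them was 0.762 (0.526 to 1.09), so a difference between the secondary granule and cytosolic genes was not detectable at this depth.

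**Figure D3:**
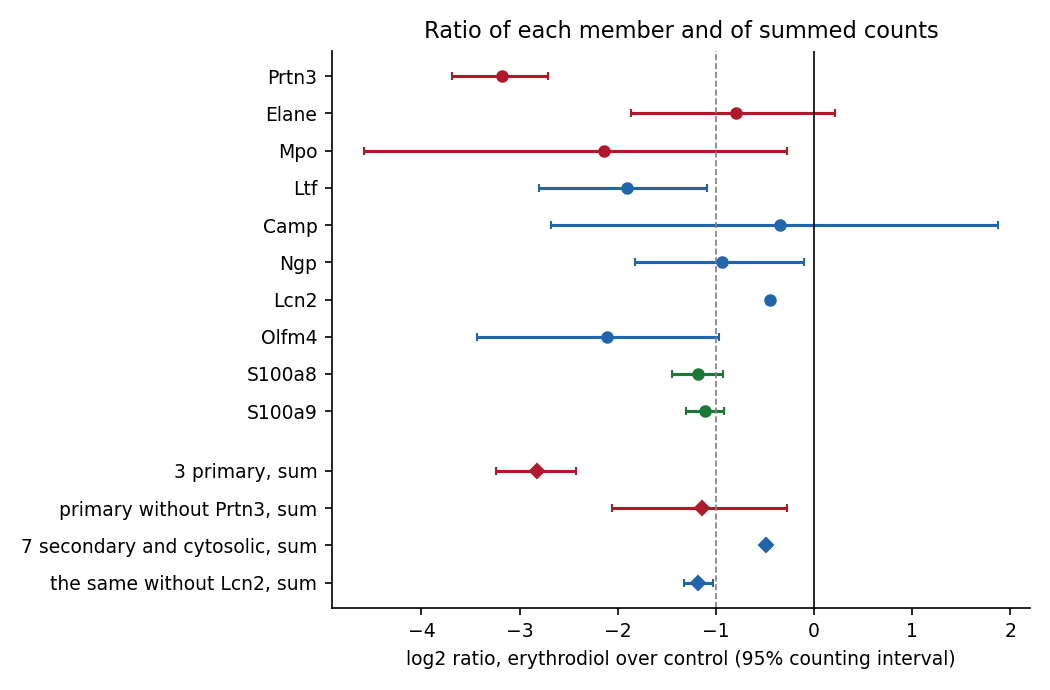
Log2 ratio of erythrodiol over control for each member (circles) and for summed counts (diamonds), with the 95% counting interval, a solid line at no change and a dashed line at 2-fold lower. The sum of the 3 primary granule genes lies at -2.82 and moves to -1.14 without Prtn3, and the sum of the 7 later genes lies at -0.49 and moves to -1.18 without Lcn2.

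Other genes of the neutrophil lineage were read from lists. Of 4 further primary granule genes, Ctsg, the gene of cathepsin G, had 3 control and 1 erythrodiol counts and Prss57 had 3.19 and 1.00, so none had 10 counts and Prtn3 was the single primary granule gene measured deeply. Of 8 further genes of secondary granules and immature neutrophils, 6 had at least 10 counts and 0 were lower or higher by 2-fold, with a median log2 ratio of -0.43. Chil3, a chitinase-like protein that macrophages also make, had 152 and 86 counts with a log2 ratio of -0.84 (-1.24 to -0.45). Pglyrp1, a peptidoglycan-binding granule protein, had 101 and 68 counts with -0.59 (-1.06 to -0.13). Itgb2l, an integrin subunit, was higher, with 100 and 143 counts and 0.50 (0.12 to 0.88). Mmp8, the neutrophil collagenase, at -0.65, Cd177 at -0.28 and the surface marker Ly6g at 0.20 had intervals that held no change. Fcnb had 4 control and 0 erythrodiol counts and Abca13 had 3 and 0, where a count of 0 allows up to 3.

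Genes of mature neutrophils were measured for 11 of 13 symbols, all with at least 10 counts, and 2 were lower and 0 higher by 2-fold or more. Fpr2, a formyl peptide receptor, had 278 and 124 counts with a log2 ratio of -1.19 (-1.50 to -0.88). Stfa2l1, a stefin, had 13 and 6 counts with -1.14 (-2.82 to 0.36). Fpr1, the other formyl peptide receptor, had 517 and 345 counts with -0.60 (-0.81 to -0.41). Csf3r, the receptor of the granulocyte growth factor, was nearly level, with 1156 and 1185 counts and 0.01 (-0.10 to 0.13). Mmp9, the gelatinase of the tertiary granules, was likewise nearly level at 166 and 162 counts. Cxcr2, the chemokine receptor that draws neutrophils to tissue, had 134 and 176 counts with 0.38 (0.04 to 0.71), and Slfn4 had 285 and 346 with 0.26 (0.03 to 0.49). Trem1 at -0.76, Asprv1 at -0.63, Il1r2 at -0.44 and Retnlg at -0.24 had 35 to 78 counts in all and intervals that held no change, although that of Trem1 barely did. The median of the 11 was -0.44. Mature neutrophil genes thus stood on both sides of no change. Csf3r, Slfn4, Fpr1 and Fpr2, which were level, higher or lower, are also made by other myeloid cells.

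Transcription factors and receptors of early blood cells had 6 genes with at least 10 counts, of which 0 passed 2-fold, with a median of 0.16. Kit, the receptor of stem cell factor, had 519 and 814 counts with 0.63 (0.47 to 0.79), and Cebpe, a factor of granulocyte maturation, had 1030 and 1184 with 0.18 (0.06 to 0.30). Gata2 was higher too, with 99 and 133 counts and 0.40 (0.02 to 0.80). Flt3 had 168 and 137 counts with -0.32 (-0.65 to 0.02). Myb, with 17 and 17 counts, and Gfi1, with 17 and 19, were nearly level within wide intervals. The NADPH oxidase, which makes the superoxide of the neutrophil burst and is shared with macrophages, had 6 of 6 genes below 1 in ratio, as had 31.9% of all genes, and 0 lower by 2-fold, with a median of -0.22. Cybb, its membrane subunit, had 5997 and 5515 counts, and Rac2 had 3402 and 2766. Of 7 inhibitors and processing enzymes of granule proteases, 0 passed 2-fold. In 5 of them the interval lay below no change and in 2 above it, whereas 15.9% of all genes had an interval below it. Serpinb1a had 985 and 575 counts with a log2 ratio of -0.80 (-0.95 to -0.65), and Slpi had 503 and 366 with -0.48 (-0.68 to -0.28). Serpina1c and Serpina1b, liver inhibitors of elastase with near-identical copies that share reads, had log2 ratios of 0.15 and -0.05. The list of neutrophil attraction and growth, which holds receptors such as Csf3r as well as ligands, had 7 genes with at least 10 counts. Csf3, the granulocyte growth factor, had 1 control and 0 erythrodiol counts and was not among them. Of the 7, Cxcl5, a ligand of Cxcr2, was lower by 2-fold or more, with 103 and 45 counts and -1.22 (-1.75 to -0.70). In the same list Cxcl1, another such ligand, had 2569 and 1642 counts with -0.67 (-0.76 to -0.58), and Cxcl12, which holds neutrophils in the marrow, had 39107 and 49851 counts with 0.33.

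**Figure D4:**
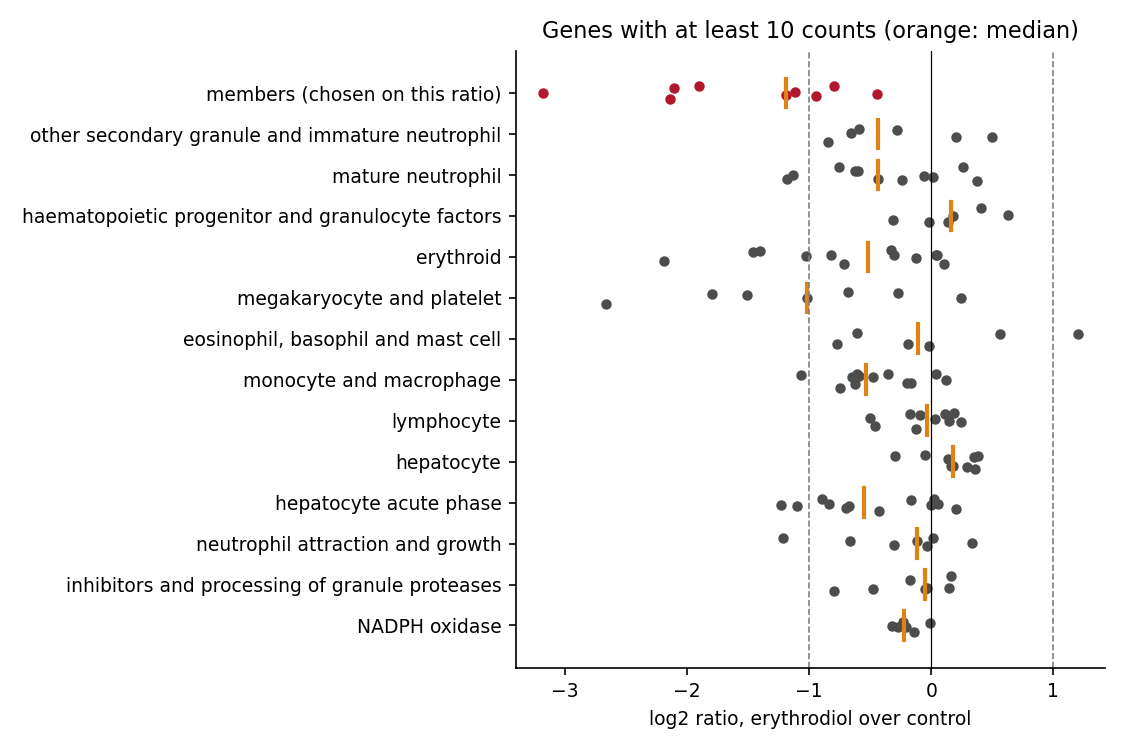
Log2 ratio of erythrodiol over control for each gene with at least 10 counts, by list, with orange bars at the list medians and dashed lines at 2-fold. The members, in red, were chosen on this ratio, the medians of the secondary granule and mature neutrophil lists lie at -0.43 and -0.44, and genes of both lists lie on either side of no change.

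Markers of other cells moved beside the granule genes, and their part in these results was not tested. Of 12 erythroid genes 9 were lower and 3 higher, with a median of -0.52, and 4 were lower by 2-fold or more, among them Trim10 with 27 and 6 counts and Hbb-bt with 11578 and 5763. The globins Hbb-bs and Hba-a1, whose near-identical copies share reads, had log2 ratios of -0.72 and -0.31. The 3 higher ones, named after their values were seen, were Klf1 at 0.10, Alas2 at 0.05 (0.02 to 0.08) and Ermap at 0.04, all of which turned to lower under scaling by the median ratio. Of 7 megakaryocyte and platelet genes 4 were lower by that much, among them Ppbp with 154 and 77 counts, Gp9 with 24 and 7, and Gp1bb with 23.3 and 3.74. Itga2b, the most abundant of them, was not, with 253 and 303 counts. Of 12 monocyte and macrophage genes 10 were lower, against 31.9% of all genes, and 12 under median scaling, against 51.3%, with a median log2 ratio of -0.54 under the column totals. By 2-fold 1 was lower, the scavenger receptor Marco with 6374 and 3086 counts. Lyz2 had 34731 and 22897 counts and Clec4f, a Kupffer cell lectin, had 19293 and 12507. Of 6 eosinophil, basophil and mast cell genes 1 was higher by 2-fold, Cpa3 with 3 and 7 counts, whereas Ear2 had 2345 and 1391 and Mcpt4 had 9 and 8. Of 10 lymphocyte genes 0 passed 2-fold, and Cd79a with 248 and 257 counts and Cd4 with 205 and 230 were nearly level.

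Hepatocyte genes are given here because hepatocytes also make Lcn2. The 9 hepatocyte genes had a median log2 ratio of 0.18, with Alb at -0.06 and Cyp2e1 at 0.30. Of 12 acute phase genes 2 were lower by 2-fold or more, the serum amyloid genes Saa1, with 52221 and 22566 counts, and Saa2, with 25386 and 12039, which are near copies of each other. Hpx, which encodes the heme carrier hemopexin, had -0.67 and the fibrinogen gene Fgb -0.17, and the median of the list was -0.55. The log2 ratio of Lcn2 itself was -0.45 (-0.48 to -0.41). The acute phase genes ran from -1.23 to 0.20, a range that also held S100a8 at -1.19 and S100a9 at -1.11. Lying within it therefore does not set Lcn2 apart from those members, and the source of the Lcn2 counts was not tested.

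Prtn3 and Elane lie 3137 bases apart on chromosome 10, and Cfd, the gene of the serine protease adipsin or complement factor D, follows Elane at chr10:79890853-79892655. Cfd had 416 control and 160 erythrodiol counts, with a log2 ratio of -1.40 (-1.67 to -1.13), so the 3 neighbouring serine protease genes were all lower in point estimate. The genes that flank them were higher, against a median of 0.15 over all genes, with Ptbp1 at 0.37 (0.34 to 0.40) and Plppr3 at 0.33 (0.10 to 0.56) before Prtn3, and Med16 at 0.25 (0.17 to 0.33) after Cfd. Near Camp and Ngp on chromosome 9, Nme6 at 0.03, Cdc25a at 0.46, Ptpn23 at 0.34 and Klhl18 at 0.20 were level or higher. S100a8 and S100a9 lie 22595 bases apart on chromosome 3. Next to them S100a6, which many cell types make, had 383 and 246 counts with -0.66 (-0.90 to -0.42), and S100a7a had 1 and 6 counts with 2.56 (-0.48 to 8.09).

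Ratios also ran with gene length. Over 20 classes of equal size by length, the median log2 ratio of genes with at least 100 counts ran from -0.30 in the class of 333 to 915 bases to 0.35 in that of 7428 to 26655 bases. S100a8 and S100a9 are 392 and 536 bases long, Camp 599 and Lcn2 853. Among 195 genes of at most 600 bases with at least 50 counts, a limit set after the values were seen, the median was -0.48 and 9.74% were lower by 2-fold or more. Relative to genes of like length, S100a8 had a log2 ratio of -0.89, S100a9 -0.81 and Lcn2 -0.15, and 4 members in place of 6 were lower by 2-fold or more. Prtn3, with 983 bases, was at -3.12 on that scale and Ltf, with 2742 bases, at -2.06. All 10 members were below genes of their length, Camp by 0.04 alone. On that scale Saa1 at -0.93, Saa2 at -0.80, Hbb-bt at -0.73, Ppbp at -0.95 and Stfa2l1 at -0.84 fell short of 2-fold lower. All other genes of the lists that were 2-fold lower under the column totals still reached it. Cfd is 924 bases long, whereas Plppr3 and Med16 near it have 3079 and 3218. The part of length in these ratios was not tested.

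**Figure D5:**
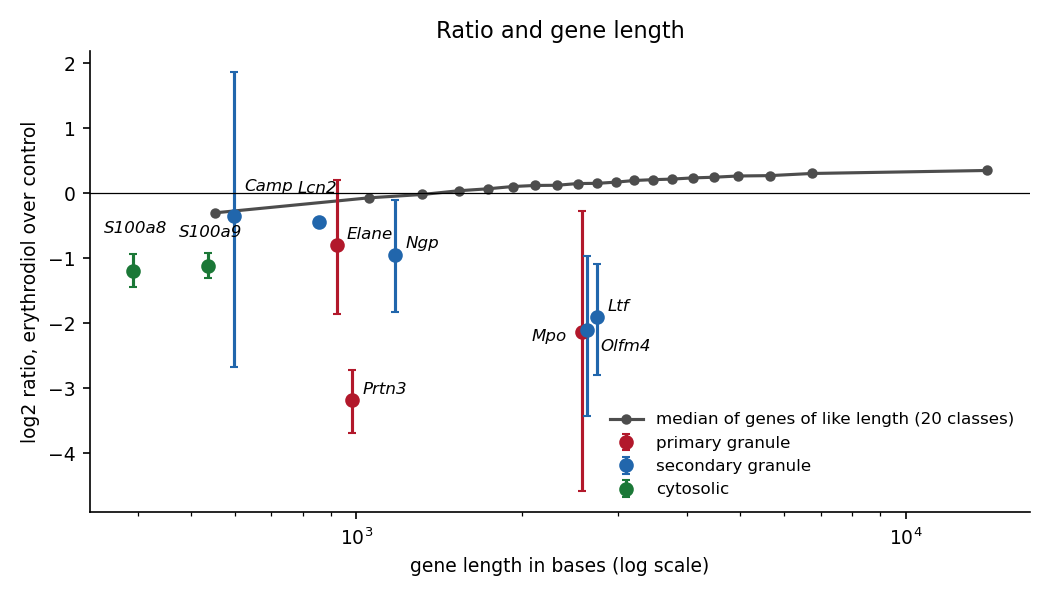
Log2 ratio of erythrodiol over control by gene length in bases (log axis), with grey points for the median of genes with at least 100 counts in each of 20 length classes and coloured points for the members with 95% counting intervals. The class medians run from -0.30 to 0.35, S100a8 and S100a9 lie among the shortest genes, and Prtn3 lies far below genes of its length.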

How the data were processed

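RNA-seq was done on liver poly(A) RNA in 7 control and 7 erythrodiol libraries. The authors mapped the reads and deposited expected counts per gene, as estimated by RSEM, summed over the libraries of each group (GRCm38). The labels' processing notes name HISAT, StringTie, Cufflinks, GATK, Bowtie2 and RSEM, with versions not given in the sources used here. Clean read counts and the percent of reads mapped to genes were deposited per library and were used for depth alone. The table also holds the authors' log2 ratios, p-values and q-values between the groups, which were not used. Of all genes 19.2% had a count that was not whole in either or both groups, whereas the counts of all 10 members were whole.

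Ratios were taken between the group counts, rounded to whole numbers for intervals and scaled by the column totals. Intervals are exact (Clopper-Pearson, conditional on the sum, or Poisson) at 95%. Contrasts between gene sums are plain ratios of ratios, with intervals from the conditional odds ratio. As reads are not independent molecules, all intervals cover counting error only. With 1 pooled value per group no test was possible and no p-value is given. The calculation was tested on simulated data. Intervals were computed with scipy 1.17.1 under Python 3.11.15, tables with pandas 2.3.3 and numpy 2.4.6, and figures with matplotlib 3.10.9.

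The members and lists were chosen with earlier results of these data known. Named were all members, every gene of the neutrophil lists with at least 10 counts, the 2 most abundant genes of each other list with those past 2-fold, the 10 lowest ratios among genes with at least 50 counts, the neighbouring genes and Apoe. A few genes that this rule names are not reported here. Fcnb, Abca13, Ctsg, Prss57, Csf3, Gata2, Flt3, Myb, Gfi1, Serpinb1a and Slpi were named in addition, after their values were seen. Alternatives were another scaling, count minimum, fold limit, pseudocount, weighing of members, division by length and the members left out. Gene coordinates and promoters were taken from RefSeq on GRCm38.p6, where all 10 members matched.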

Additional observations from a re-analysis of the deposited data

Results flagged for a closer look

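The percent of reads mapped to genes was 64.33 in control replicate 3, far from the other control libraries, which had a median of 75.3 with it included. Its gap to the nearest library was 0.588 of the whole range of the 7. Chance alone would mark about 1 in 20 such groups. The counts of this library are held within the control sums and could not be left out.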

How the results depend on the processing

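No paired analysis was possible because the counts came as 1 sum per group, and for the same reason no library could be left out in turn. All 10 members stayed lower under scaling by the median ratio of genes with at least 100 counts, which stood at 0.16, under scaling by genes of like length and with a pseudocount of 1, and 6, 7 and 4 were lower by 2-fold or more under the column totals, the median ratio and the length scaling. The sum of the primary granule genes, at a log2 ratio of -2.82, was -2.14 with the members weighed equally and -1.14 without Prtn3. That of the later genes, at -0.49, was -0.65 under median scaling, -1.11 with equal weights and -1.18 without Lcn2. The difference between them, at -2.33, was -1.02 with equal weights, -1.64 without Lcn2 and -0.66 without Prtn3. It turned to 0.0356 without both (-0.90 to 0.91), and the cause was not tested. Leaving out Prtn3, or Lcn2 from the later sum alone, or both was chosen after seeing the data. Genes lower by 2-fold or more numbered 274, against 1066 with no minimum, 73 with at least 100 counts and 848 at 1.5-fold. Genes higher by that much numbered 215, against 819, 29 and 767. Under median scaling they were 387 lower and 160 higher, so that 70.7% of genes past 2-fold were lower in place of 56.0%. Division by length and counts left unrounded kept every sum within its counting interval. At the depth of Camp, Mpo and Elane a change of under 2-fold could not be seen, and larger ones could be missed. The interval of Camp ran from 6.39-fold lower to 3.66-fold higher, and that of Elane from 3.64-fold lower to 1.16-fold higher.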
